A study of Homo sapiens with 9 samples.

Results

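RGS2, BARX2, TMEM158, DPP4 and C16orf87 are 5 protein-coding genes of the human cholangiocarcinoma line EGI-1 that were lower in cells depleted of FOSL1. They were chosen by their levels in the libraries described here: each had a lower level in CPM (counts scaled to the size of the library) in all 6 FOSL1 hairpin libraries than in all 3 control libraries. They are 5 of the 58381 genes counted and of the 12814 genes that passed the expression filter. FOSL1sh3 and FOSL1sh10 are doxycycline-inducible (TET) hairpins against FOSL1, and GFPsh is the inducible hairpin against green fluorescent protein used as the control, with 3 libraries in each group. Cells of all groups, controls included, were given 2 ug/ml doxycycline for 4 days and were seeded for 24 h before RNA was isolated. The labels do not tell whether a hairpin line was a clone or a pool, or whether libraries of a group were separate cultures. The p-values below therefore speak to variation among these particular libraries, which may be technical.

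FOSL1 encodes FRA-1, a leucine-zipper protein of the AP-1 family. FRA-1 pairs with JUN proteins and binds the AP-1 site, and it is known as an output of RAS and ERK signalling in epithelial tumours. The 5 genes have different roles. RGS2 speeds GTP hydrolysis by G protein alpha subunits, with a preference for Gq, and so shortens receptor signalling. BARX2 is a homeobox transcription factor of epithelia and muscle. TMEM158 is a transmembrane protein first described as a gene induced by oncogenic RAS during senescence. DPP4 (CD26) is a cell-surface serine peptidase that removes dipeptides from the amino end of incretins and chemokines and that binds adenosine deaminase. C16orf87 is a small protein that has been recovered with histone deacetylase complexes.

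Promoter windows of 3 of the genes are shown because FRA-1 acts on DNA. RGS2 and DPP4 share a short motif, and TMEM158 is the gene on which the hairpins differed. Each runs from 250 bases before to 50 bases after the RefSeq transcription start, on the strand of the gene, in GRCh38.p14. RGS2 is shown from chr1:192808789-192809088 (plus strand), DPP4 from chr2:162074166-162074465 (minus strand) and TMEM158 from chr3:45226238-45226537 (minus strand). Capitals mark GACGTCA, which is the cyclic AMP response element TGACGTCA without its first base.
RGS2: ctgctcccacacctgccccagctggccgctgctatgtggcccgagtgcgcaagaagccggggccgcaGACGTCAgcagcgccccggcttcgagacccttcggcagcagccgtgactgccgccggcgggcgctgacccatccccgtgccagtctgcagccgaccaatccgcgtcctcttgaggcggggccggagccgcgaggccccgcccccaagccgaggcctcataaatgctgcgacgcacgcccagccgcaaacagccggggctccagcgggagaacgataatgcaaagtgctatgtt
DPP4: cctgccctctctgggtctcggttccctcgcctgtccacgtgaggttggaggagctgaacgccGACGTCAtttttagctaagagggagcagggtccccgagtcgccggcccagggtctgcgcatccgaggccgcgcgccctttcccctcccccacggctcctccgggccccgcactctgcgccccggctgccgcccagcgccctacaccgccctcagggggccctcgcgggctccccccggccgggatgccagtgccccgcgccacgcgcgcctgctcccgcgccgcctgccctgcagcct
TMEM158: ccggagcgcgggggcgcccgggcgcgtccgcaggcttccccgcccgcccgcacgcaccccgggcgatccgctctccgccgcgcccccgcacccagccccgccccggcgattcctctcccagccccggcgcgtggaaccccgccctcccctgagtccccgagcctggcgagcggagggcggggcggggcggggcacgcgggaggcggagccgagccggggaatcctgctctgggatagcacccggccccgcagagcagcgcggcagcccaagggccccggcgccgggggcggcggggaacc

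RefSeq windows were found for 4 of the 5 genes, all but BARX2. Their GC content was 69.7% for RGS2, 82.7% for TMEM158, 75.0% for DPP4 and 73.7% for C16orf87, against a median of 58.7% over 35116 human promoter windows of the same length. The AP-1 site TGANTCA was searched on both strands and was in none of the 4 windows, while 7.71% of all windows held it. The full element TGACGTCA was likewise in none of the 4 (1.85% of all windows). TATAAA and GACGTCA read differently on the 2 strands and were searched on the strand of the gene alone. TATAAA was in none of the 4 (7.33% of all windows). GACGTCA, a motif picked after the sequences had been read and overlapping TGACGTCA, was in the RGS2 window with its first base at -183 and in the DPP4 window at -188. It was in 2.65% of all windows, a share that leaves out matches on the other strand. A match is a description of the letters and not of binding, and these windows cover no distal element. In the annotation used for counting, DPP4 reached to 162074542 and C16orf87 to 46831411, past their windows. Those windows thus lay inside the annotated genes and hold no bases before the outermost annotated start.

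The 9 libraries held 6893026 to 10604251 counts. The targeted gene FOSL1 was at 72.1, 70.1 and 44.8 CPM in FOSL1sh3, at 70.7, 57.0 and 65.7 CPM in FOSL1sh10 and at 302, 256 and 182 CPM in GFPsh. FOSL1 was thus at 25.3% and 26.1% of the GFPsh mean with FOSL1sh3 and FOSL1sh10, with no overlap between hairpin and control libraries. The epithelial keratin KRT19 had 24802 to 50283 counts in every library, whereas the bile duct genes SPP1 and CFTR had at most 1 count in any library. In bulk RNA, fewer cells of a type and less RNA per cell cannot be told apart.

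By edgeR's quasi-likelihood test with Benjamini-Hochberg adjustment over 12814 genes, 724 genes (5.65%) were lower and 668 (5.21%) were higher with FOSL1sh3 than with GFPsh. With FOSL1sh10, 275 (2.15%) were lower and 401 (3.13%) were higher. In total 68 genes (0.531%) were lower with both hairpins and 131 (1.02%) were higher with both. All 6 hairpin libraries lay below all 3 controls for 563 genes (4.39%). The 5 genes were chosen from these comparisons, so their values against GFPsh are given as a description, without a test.

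RGS2 (ENSG00000116741.7, hg38 chromosome 1, 192809039 to 192812283, plus strand) was at 12.3, 11.1 and 3.68 CPM in FOSL1sh3, at 11.0, 8.57 and 7.62 CPM in FOSL1sh10 and at 35.0, 35.7 and 25.7 CPM in GFPsh. The highest hairpin library was 13.4 CPM below the lowest control library, a gap of 41.8% of the GFPsh mean. The means were 9.02 ± 4.66 CPM with FOSL1sh3, 9.05 ± 1.72 CPM with FOSL1sh10 and 32.1 ± 5.55 CPM with GFPsh (SD, n = 3 each). Both hairpins thus left the regulator of Gq signalling at nearly the same share of its control level, 28.1% with FOSL1sh3 and 28.2% with FOSL1sh10. The log2 fold changes were -1.82 (SE 0.293) for FOSL1sh3 and -1.83 (SE 0.293) for FOSL1sh10. FOSL1sh3 replicate 3 was the lowest RGS2 library, and it was also the lowest library for FOSL1 and C16orf87. Without it the RGS2 log2 fold change for FOSL1sh3 was -1.45.

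BARX2 (ENSG00000043039.6, chromosome 11, 129375940 to 129452279, plus strand) was at 2.15, 2.59 and 2.28 CPM in FOSL1sh3, at 3.27, 2.82 and 3.56 CPM in FOSL1sh10 and at 10.0, 8.31 and 7.04 CPM in GFPsh. The homeobox gene rested on the fewest reads of the 5, with 18 to 21 counts per FOSL1sh3 library, 23 to 35 per FOSL1sh10 library and 64 to 74 per GFPsh library. Its means were 2.34 ± 0.226 CPM, 3.22 ± 0.372 CPM and 8.46 ± 1.51 CPM with FOSL1sh3, FOSL1sh10 and GFPsh (SD, n = 3 each). This left 27.7% of the GFPsh mean with FOSL1sh3 and 38.0% with FOSL1sh10. The FOSL1sh3 libraries agreed more closely than those of any other of the 5 genes, the highest being 1.2 times the lowest. The log2 fold changes were -1.85 (SE 0.277) for FOSL1sh3 and -1.39 (SE 0.265) for FOSL1sh10.

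TMEM158 (ENSG00000249992.1, chromosome 3, 45224466 to 45226278, minus strand) was at 5.02, 11.2 and 10.7 CPM in FOSL1sh3, at 16.2, 18.7 and 14.9 CPM in FOSL1sh10 and at 33.2, 27.2 and 32.8 CPM in GFPsh. The 3 groups formed 3 separate steps, with every FOSL1sh3 library below every FOSL1sh10 library and every FOSL1sh10 library below every control. Hairpin groups without overlap, in either direction, were found for 30.7% of all genes tested. The means were 8.97 ± 3.43 CPM with FOSL1sh3, 16.6 ± 1.93 CPM with FOSL1sh10 and 31.0 ± 3.35 CPM with GFPsh (SD, n = 3 each). The membrane protein gene therefore kept 28.9% of the GFPsh mean with FOSL1sh3 and 53.6% with FOSL1sh10. Its log2 fold changes were -1.81 (SE 0.238) for FOSL1sh3 and -0.90 (SE 0.225) for FOSL1sh10.

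DPP4 (ENSG00000197635.9, chromosome 2, 161992241 to 162074542, minus strand) was at 4.61, 8.63 and 9.27 CPM in FOSL1sh3, at 10.8, 11.3 and 12.2 CPM in FOSL1sh10 and at 16.5, 18.4 and 29.6 CPM in GFPsh. The peptidase gene showed the same 3 steps as TMEM158, but its control libraries were spread 1.79-fold. The gap below them was 4.32 CPM, or 20.1% of the GFPsh mean. As a percent of that mean it was the narrowest of the 5 genes, while in CPM the gap of BARX2 was narrower (3.48). The means were 7.50 ± 2.53 CPM with FOSL1sh3, 11.4 ± 0.703 CPM with FOSL1sh10 and 21.5 ± 7.06 CPM with GFPsh (SD, n = 3 each). DPP4 was at 34.9% of the GFPsh mean with FOSL1sh3 and at 53.2% with FOSL1sh10. The log2 fold changes were -1.54 (SE 0.262) for FOSL1sh3 and -0.91 (SE 0.251) for FOSL1sh10, and the FOSL1sh10 value was -0.61 without GFPsh replicate 3. DPP4-DT, whose exons overlap DPP4 on the other strand, had 0 counts in all 9 libraries.

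C16orf87 (ENSG00000155330.9, chromosome 16, 46796607 to 46831411, minus strand) was at 9.01, 10.8 and 6.35 CPM in FOSL1sh3, at 7.11, 7.78 and 6.61 CPM in FOSL1sh10 and at 17.3, 16.7 and 16.4 CPM in GFPsh. Its controls were the tightest of the 5 genes, the highest being 1.06 times the lowest, and the libraries of both hairpins overlapped each other. The means were 8.72 ± 2.24 CPM with FOSL1sh3, 7.17 ± 0.591 CPM with FOSL1sh10 and 16.8 ± 0.484 CPM with GFPsh (SD, n = 3 each). C16orf87 had its lower mean under FOSL1sh10, at 51.8% of the GFPsh mean with FOSL1sh3 and 42.6% with FOSL1sh10. The log2 fold changes were -0.95 (SE 0.211) for FOSL1sh3 and -1.23 (SE 0.214) for FOSL1sh10.

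**Figure D1:**
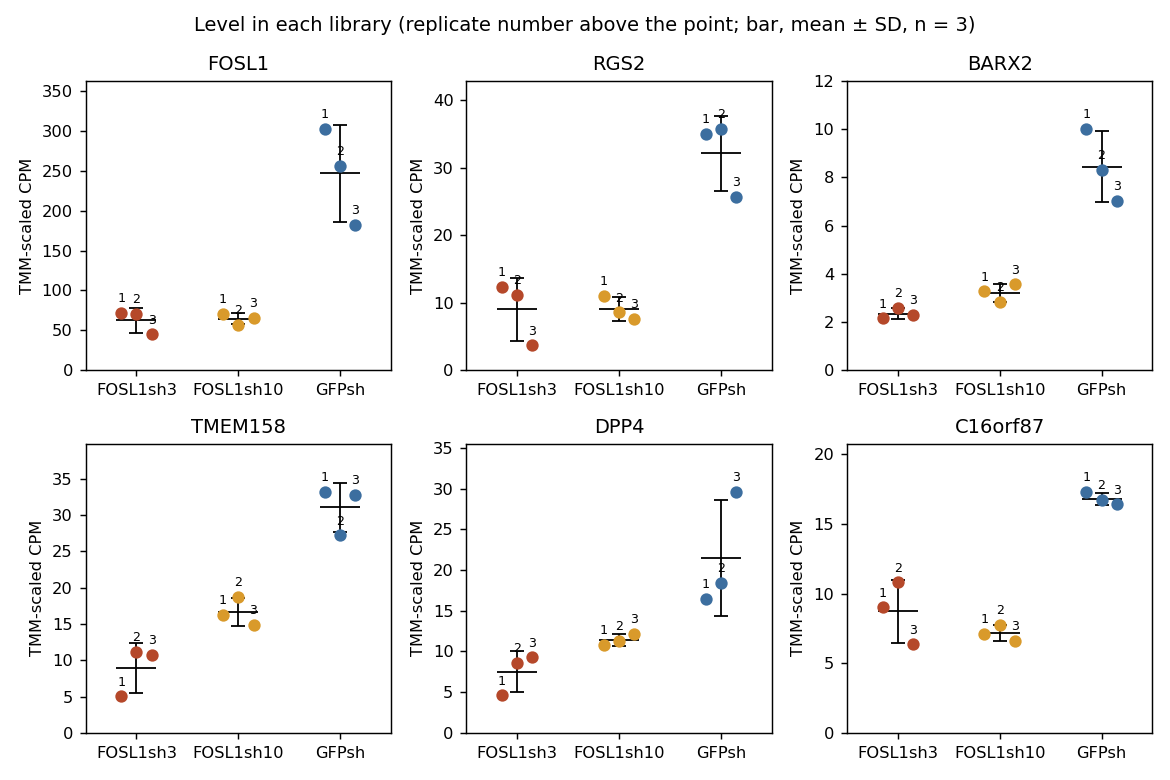
Levels of the 5 genes and of FOSL1 in CPM for each library, by group, with the group mean and SD. Every hairpin library lies below every GFPsh library for each gene, and the FOSL1sh3 and FOSL1sh10 points separate for BARX2, TMEM158 and DPP4.

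The depth of reduction varied between libraries of FOSL1sh3 more than between libraries of FOSL1sh10 for 4 of the 5 genes by the ratio of the highest to the lowest library. That ratio was 3.34 in FOSL1sh3 and 1.44 in FOSL1sh10 for RGS2, and 2.24 in FOSL1sh3 and 1.25 in FOSL1sh10 for TMEM158. For DPP4 it was 2.01 in FOSL1sh3 and 1.13 in FOSL1sh10. The exception was BARX2, with 1.2 in FOSL1sh3 and 1.26 in FOSL1sh10. For FOSL1 the ratio was 1.61 in FOSL1sh3 and 1.24 in FOSL1sh10. The share of all genes with this order was not computed, so the count says nothing particular about the 5 genes. FOSL1sh3 replicate 1 was the lowest library of all 9 for BARX2, TMEM158 and DPP4. In that library TMEM158 was at 16.2% and DPP4 at 21.4% of the GFPsh mean, while FOSL1 was at 29.2%. In FOSL1sh3 replicate 3, where FOSL1 was at 18.2%, RGS2 was at 11.5% and DPP4 at 43.1%.

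**Figure D2:**
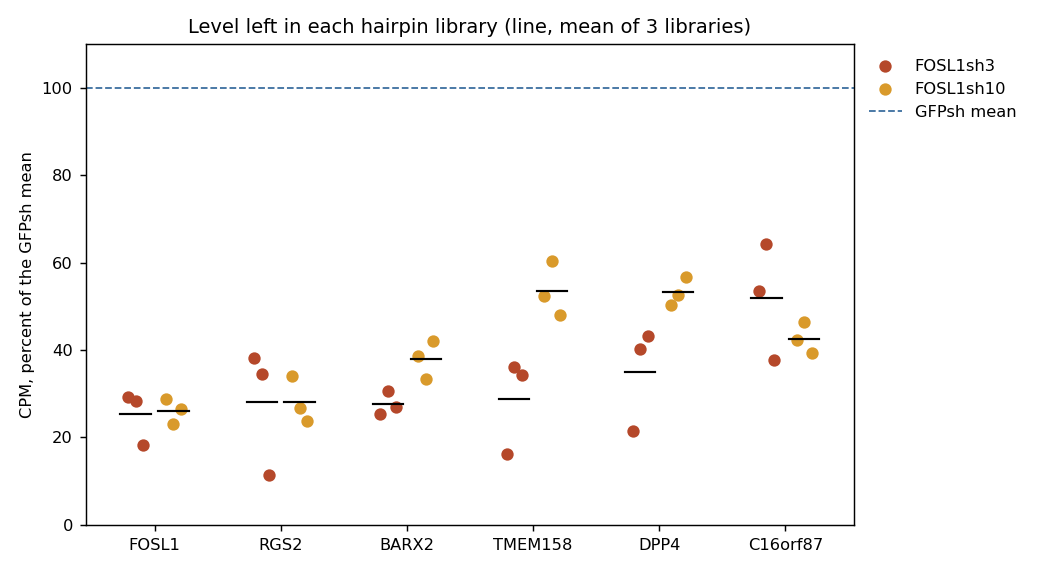
Level of each of the 5 genes and FOSL1 in each FOSL1 hairpin library as a percent of the GFPsh mean. FOSL1sh3 replicate 3 is lowest for RGS2 (11.5%) and FOSL1 (18.2%), and FOSL1sh3 replicate 1 is lowest for TMEM158 (16.2%) and DPP4 (21.4%).

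Comparing the hairpins with each other does not use the levels of the 5 genes in the controls. The choice of the genes did use their hairpin levels, since each hairpin library had to lie below all controls. That limited how far the hairpins could differ for these genes. The controls still entered the expression filter, the scaling and the estimate of the spread, which came from all 9 libraries. This comparison is the contrast for which tests of the 5 genes are given. It asks whether hairpins that left similar FOSL1 levels left similar levels of these genes. FOSL1 itself had a log2 difference of -0.05 between FOSL1sh3 and FOSL1sh10 (adjusted p = 0.9, edgeR). TMEM158 was lower with FOSL1sh3 than with FOSL1sh10, by a log2 difference of -0.91 (SE 0.242, 95% interval -1.42 to -0.40, adjusted p = 0.0199, edgeR), and was lower in 3 of 3 FOSL1sh3 libraries. With only the FOSL1sh3 and FOSL1sh10 libraries fitted, the log2 difference was -0.89 (adjusted p = 0.0421, edgeR). The TMEM158 call was lost without FOSL1sh3 replicate 1 (log2 difference -0.60, adjusted p = 0.0723) and without FOSL1sh10 replicate 2 (-0.80, adjusted p = 0.0949). TMEM158 was the only one of the 5 genes called, against 1632 of all genes tested (12.7%). Because the choice limited the differences between hairpins, the count among the 5 and that share are not like for like.

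DPP4 had a log2 difference of -0.63 (SE 0.269, 95% interval -1.19 to -0.06) between FOSL1sh3 and FOSL1sh10 and did not pass after adjustment over all genes (adjusted p = 0.135, edgeR). BARX2 differed by -0.46 (SE 0.298, -1.09 to 0.16, adjusted p = 0.327, edgeR). The FOSL1sh3 and FOSL1sh10 libraries did not overlap for TMEM158, DPP4 and BARX2, and likewise for 3934 of all genes tested (30.7%). For RGS2 the difference was 0.01 (SE 0.308, -0.63 to 0.66, adjusted p = 0.985, edgeR), an interval that still holds differences of more than 0.6 in either direction. For C16orf87 it was 0.28 (SE 0.222, -0.19 to 0.74, adjusted p = 0.437, edgeR). A p-value above the threshold does not show that the hairpins acted alike on these 4 genes.

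**Figure D3:**
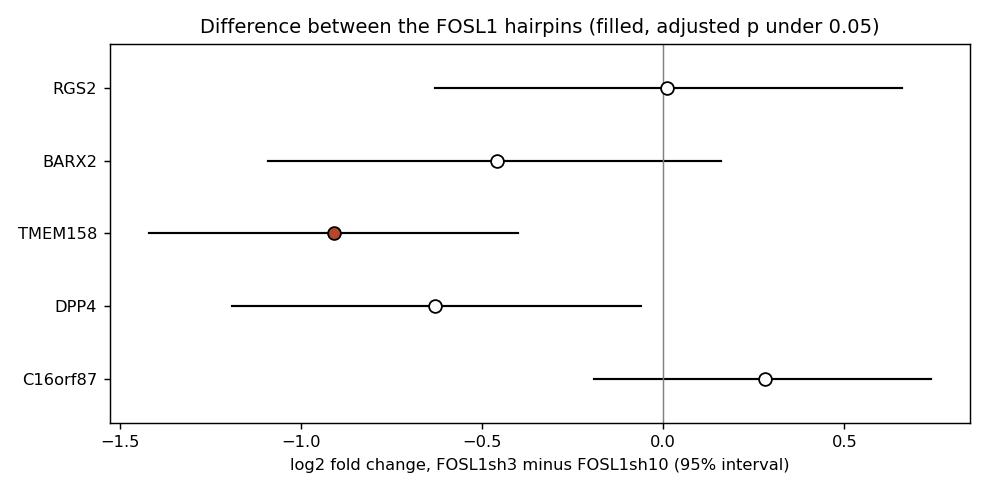
Log2 difference between FOSL1sh3 and FOSL1sh10 for the 5 genes, with 95% intervals; the filled point is the gene with an adjusted p under 0.05. The interval of TMEM158 (-1.42 to -0.40) lies furthest below 0, and those of RGS2, BARX2 and C16orf87 include 0.

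Likeness of profiles was measured as the root mean square difference of log2 CPM, relative to the GFPsh mean, over the 9 libraries, against 9962 genes with a symbol and a mean count of at least 30, with the 5 genes themselves left out. RGS2 was nearest to FOSL1 itself (0.295), followed by HMGCS1 (0.447), an enzyme of the mevalonate pathway. BARX2 was nearest to IL1RN (0.183), the interleukin 1 receptor antagonist, and to POLE2 (0.398), a subunit of DNA polymerase epsilon. Outside the 5, TMEM158 and DPP4 had the same nearest genes, RNLS and INSIG1, a regulator of sterol synthesis, at 0.339 and 0.375 for TMEM158 and at 0.225 and 0.271 for DPP4. RNLS averaged 3.17 ± 0.963 CPM with FOSL1sh3, 5.44 ± 1.58 CPM with FOSL1sh10 and 9.14 ± 1.73 CPM with GFPsh (SD, n = 3 each). C16orf87 was nearest to SPC25 (0.151), a kinetochore protein, and OLFML2A (0.177). The distance to FOSL1 was 0.416 for BARX2, 0.765 for TMEM158, 0.869 for DPP4 and 0.745 for C16orf87. Among the 9962 genes, FOSL1 ranked 5 for BARX2, 234 for TMEM158, 1706 for DPP4 and 1827 for C16orf87. Among the 5 genes the closest pair was TMEM158 and DPP4 (0.305) and the farthest was RGS2 and DPP4 (0.95). These are descriptions over 9 libraries that share the same 3 controls. Each distance takes in how far a gene fell in the hairpin libraries, and the 5 genes were chosen by those levels. FOSL1 was the targeted gene, so nearness of RGS2 to it partly restates a similar depth of fall.

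**Figure D4:**
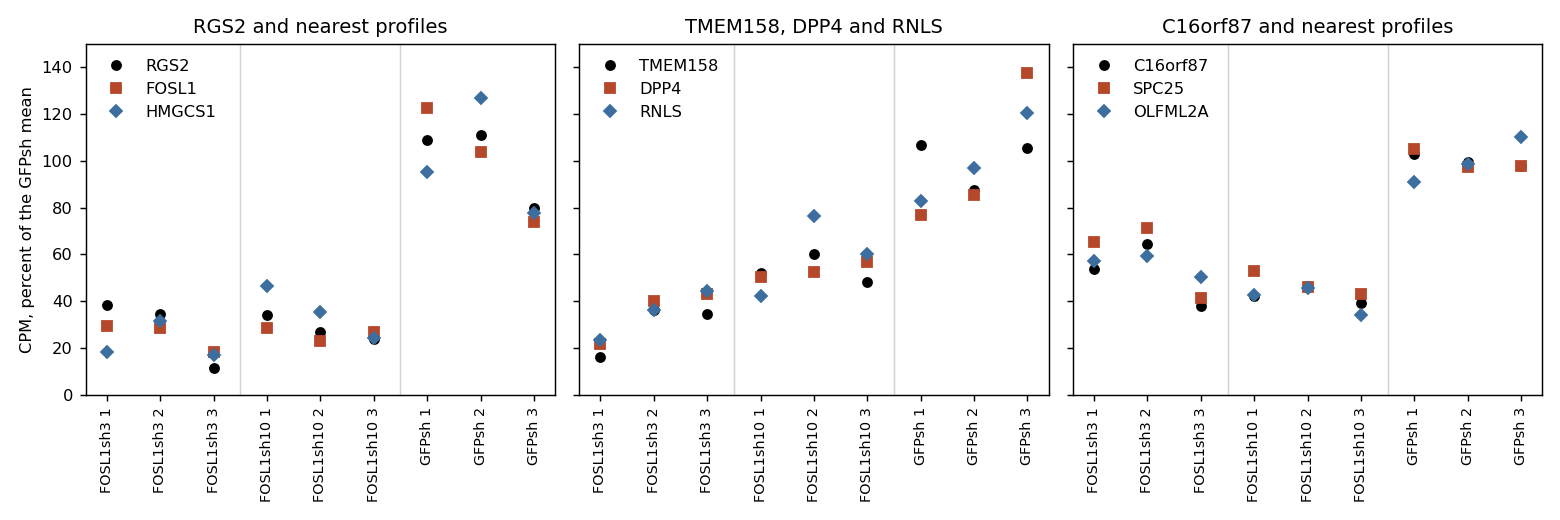
CPM as a percent of the GFPsh mean in each of the 9 libraries for RGS2 with FOSL1 and HMGCS1, for TMEM158 and DPP4 with RNLS, and for C16orf87 with SPC25 and OLFML2A. TMEM158, DPP4 and RNLS are each lowest in FOSL1sh3 replicate 1, and RGS2 and FOSL1 are each lowest in FOSL1sh3 replicate 3.

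The nearest tested genes on each side were examined for each of the 5 genes. Of these 10 neighbours 0 were called lower with both hairpins, a call made for 0.531% of all genes tested, so the count says nothing particular about the neighbours. Beside RGS2, the deubiquitinase UCHL5 was lower with FOSL1sh3 (log2 fold change -0.81, adjusted p = 0.01, edgeR), and its value with FOSL1sh10 was -0.15 (adjusted p = 0.713). Higher with FOSL1sh10 were IFIH1, a sensor of viral RNA 193 kb from DPP4 (0.87, adjusted p = 0.00606, edgeR), and GPT2, a mitochondrial alanine aminotransferase 53.0 kb from C16orf87 (1.19, adjusted p = 0.000448, edgeR). With FOSL1sh3 their values were 0.26 and 0.17. The hairpins differed for each of these 3 neighbours, with log2 differences of -0.65 for UCHL5, -0.61 for IFIH1 and -1.02 for GPT2 (adjusted p = 0.0262, 0.0289 and 0.00131, edgeR). The genes RGS1 and FAP, close homologues of RGS2 and DPP4, had 1 count each over all 9 libraries.

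**Figure D5:**
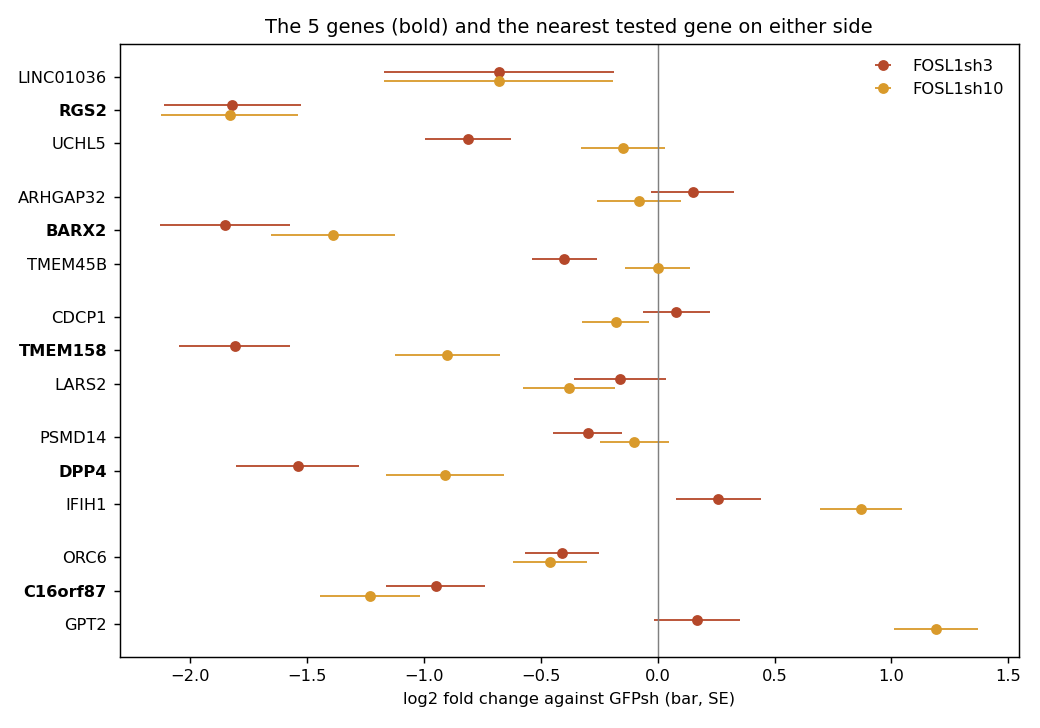
Log2 fold change against GFPsh, with its SE, of each of the 5 genes and of the nearest tested gene on either side, for FOSL1sh3 and FOSL1sh10. The 5 genes have negative values with both hairpins, and GPT2 (1.19) and IFIH1 (0.87) are higher with FOSL1sh10.

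Other genes of each pathway were counted from lists drawn up with earlier results of these data known. Over all genes tested, 5.65% were lower and 5.21% higher with FOSL1sh3, and 2.15% lower and 3.13% higher with FOSL1sh10. Of 34 RGS proteins and Gq signalling genes, 20 were tested, and 1 was lower and 1 higher with FOSL1sh3 while 0 passed with FOSL1sh10. The median log2 fold change was -0.08 with FOSL1sh3 and 0.00 with FOSL1sh10, against 0.01 and 0.00 over all genes. RGS9 was the gene lower with FOSL1sh3 (-0.93, adjusted p = 0.00376, edgeR) and GNAI2, an inhibitory G protein subunit, the gene higher (0.52, adjusted p = 0.022, edgeR). Of 129 homeobox genes beside BARX2, 64 were tested, with 2 higher and 2 lower under FOSL1sh3 and 5 higher and 1 lower under FOSL1sh10. ONECUT3 was the homeobox gene lower with both, at -1.46 with FOSL1sh3 and -1.95 with FOSL1sh10 (adjusted p = 0.0119 and 0.00248, edgeR). The median was -0.03 with FOSL1sh3 and 0.10 with FOSL1sh10.

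Of 28 peptidases, partners and substrates of DPP4, 11 were tested, with 0 higher and 1 lower under FOSL1sh3 and 0 higher and 2 lower under FOSL1sh10. CAV1, the caveolin that binds DPP4, was lower with both, at 520 ± 68.9 CPM with FOSL1sh3, 321 ± 23.1 CPM with FOSL1sh10 and 739 ± 43.5 CPM with GFPsh (SD, n = 3 each). The CAV1 log2 fold changes were -0.51 and -1.20 (adjusted p = 0.0256 and 3.34e-05, edgeR), and CAV1 was the gene of that list that differed between the hairpins (0.70, adjusted p = 0.00338). Its order of the hairpins was the opposite of that of DPP4. Of 21 senescence-associated genes beside TMEM158, 15 were tested, with 2 higher and 4 lower under FOSL1sh3 and 3 higher and 1 lower under FOSL1sh10. Over all genes tested, 5.21% were higher and 5.65% lower under FOSL1sh3, and 3.13% and 2.15% under FOSL1sh10. Whether the list differed from all genes was not tested. LMNB1, a nuclear lamin that is lost in senescence, was the only gene of that list called in the same direction with both hairpins. It was lower with both (-0.79 and -0.64, adjusted p = 0.00561 and 0.0239, edgeR). Of 23 histone deacetylase partners listed beside C16orf87, all 23 were tested, and 1 was lower with each hairpin, HDAC2 with FOSL1sh3 (-0.96, adjusted p = 0.00986, edgeR) and TRERF1 with FOSL1sh10 (-0.84, adjusted p = 0.0236, edgeR).

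Because DPP4 is also a T cell surface protein, leukocyte markers were read beside it. Of 16 such markers, 1 was tested (CD14, with no call), and 5 were at 0 in all libraries, among them CD3E and CD2. Their summed level was 6.25 to 8.63 CPM in FOSL1sh3, 6.97 to 10.8 CPM in FOSL1sh10 and 4.15 to 5.39 CPM in GFPsh. Fibroblast and endothelial markers summed to 4.30 to 8.0 CPM, 8.11 to 9.66 CPM and 2.92 to 4.73 CPM in FOSL1sh3, FOSL1sh10 and GFPsh, with 6 of 12 at 0 in all libraries. Hepatocyte markers summed to 8.06 to 11.6 CPM, 13.8 to 17.6 CPM and 6.29 to 7.29 CPM in the same order, and of 8 genes 2 were at 0. SERPINA1, the only hepatocyte marker tested, was called higher with FOSL1sh10 than with GFPsh (log2 fold change 1.27). It was called lower with FOSL1sh3 than with FOSL1sh10 (-0.71). Bile duct and simple epithelial markers summed to 12200 to 13600 CPM in FOSL1sh3, 11000 to 12900 CPM in FOSL1sh10 and 10900 to 11800 CPM in GFPsh, and KRT7 was higher with both hairpins (0.46 and 0.71, adjusted p = 0.0432 and 0.00456, edgeR). The part of these markers in the results was not tested.

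The edge of the selection is shown by a pair of genes. The genes considered were called lower with both hairpins and had a symbol and a mean count of at least 30. Among them GALNT3 had the smallest gap to the controls as a share of the GFPsh mean. It had hairpin libraries at 9.83, 7.48 and 7.11 CPM (FOSL1sh3) and 9.82, 10.8 and 6.61 CPM (FOSL1sh10), against 23.4, 17.7 and 11.0 CPM in GFPsh, a gap of 0.165 CPM. All 63 of these genes had no overlap, so the gene just outside was taken, after the data had been seen, from those called lower with 1 hairpin. PEDS1 had 63.4, 71.1 and 70.2 CPM in FOSL1sh3 and 42.3, 39.7 and 53.3 CPM in FOSL1sh10, against 71.0, 75.1 and 74.9 CPM in GFPsh, and its highest hairpin library exceeded its lowest control.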

How the data were processed

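RNA of 9 EGI-1 libraries was sequenced by MARS-seq, per the labels' protocols, from RNA with a quality index above 7. FastQC 0.11.5, STAR 2.5.3a, featureCounts 1.6.0, edgeR and limma and the build hg38 are named in the submitters' processing notes. The authors deposited raw counts per gene over exons from featureCounts, per the file headers. Whether reads were collapsed by molecular identifiers is not stated in these sources, and the headers' commands carry no strand option. Symbols were matched by Ensembl ID for 57799 of 58381 genes.

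Counts were analysed in R 4.3.3 with edgeR 4.0.16 (TMM scaling, filterByExpr with a minimum count of 10 and a minimum total of 15, quasi-likelihood test over all 9 libraries, Benjamini-Hochberg threshold 0.05). The common biological coefficient of variation was 16.4%. Log2 CPM used a prior count of 2. A count of 3, taken as the limit of detection, was 0.305 to 0.432 CPM, and this covers counting error only. Alternatives were DESeq2 1.42.0, other scalings, no filter, only the groups compared, a replicate block and each library left out. The test was checked on simulated data. The 5 genes and all lists were chosen with earlier results of these data known. Genes named beside the 5 were FOSL1, the 2 nearest profiles, neighbouring genes, edge genes and, from each list, genes called with both hairpins or else the 2 of smallest p. Members of lists that differed between the hairpins were named after their values were seen. Of 129 homeobox names 1 (HOMEZ) matched no symbol.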

Additional observations from a re-analysis of the deposited data

Results flagged for a closer look

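TMEM158 is listed for a closer look because the hairpins differed in the test of that difference itself. The log2 difference of FOSL1sh3 minus FOSL1sh10 was -0.91 (adjusted p = 0.0199, edgeR), with 3 of 3 FOSL1sh3 libraries below all FOSL1sh10 libraries. Of all genes tested, 12.7% were called in this comparison and 30.7% had hairpin groups without overlap. The call was lost without FOSL1sh3 replicate 1 (adjusted p = 0.0723, edgeR) and without FOSL1sh10 replicate 2 (adjusted p = 0.0949, edgeR).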

How the results depend on the processing

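Against GFPsh, the 150 values of the 5 genes (15 alternatives, both hairpins) moved by less than the spread within groups. With 3 libraries in each group, leaving 1 out could hardly move a value by more than that spread. Their direction was fixed by how the genes were chosen. Neither is a sign of stability. With single libraries left out, the FOSL1sh10 value of DPP4 ran from -1.07 to -0.61. The FOSL1sh3 value of RGS2 ran from -2.14 to -1.45. The FOSL1sh3 minus FOSL1sh10 difference of RGS2, 0.01, changed sign with library totals alone (-0.16) and with a replicate block (-0.08), and ran from -0.30 to 0.38 with single libraries left out, so its direction was not determined. That of TMEM158 ran from -1.11 to -0.60 with single libraries left out (adjusted p 0.01 to 0.0949, edgeR). Genes lower with FOSL1sh3 numbered 307 (without GFPsh replicate 1) to 1022 with single libraries left out, against 724. Genes lower with FOSL1sh10 numbered 127 (without FOSL1sh10 replicate 2) to 398, against 275, and were 438 without the low-count filter and 510 with only the groups compared. Genes lower with both numbered 27 (without GFPsh replicate 3) to 78, against 68. Genes that differed between the hairpins numbered 712 (without FOSL1sh10 replicate 2) to 1920, against 1632, and genes with all hairpin libraries below all controls 659 to 986 (without GFPsh replicate 2), against 563. Fewer samples make non-overlap easier by construction; for the other changes the cause was not tested.

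The labels give the groups shared replicate numbers but no shared culture or day. Same-numbered libraries had deviations correlated from -0.152 to 0.289, with 2 of 9 pairs over 0.1. A library was most like its own number in 9 of 18 comparisons. Each comparison offered 3 libraries, so that count is above what chance alone would give. These values do not settle whether the numbers pair the libraries. The numbers were not taken as pairing because the labels give no shared culture or day. The replicate block gave 778 genes lower with FOSL1sh3, 294 lower with FOSL1sh10, 77 lower with both and 1673 that differed between the hairpins. BARX2 had 18 to 35 counts in hairpin libraries, which limits the precision of its fold changes.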

Other observations

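Some genes of the RGS, homeobox and histone deacetylase lists differed between the hairpins, at shares near the 12.7% of all genes tested that did so. Those counts say nothing particular about these lists. The share was larger among the 15 senescence-associated genes tested, with 1 higher and 5 lower with FOSL1sh3 than with FOSL1sh10. It was also larger among the 8 bile duct and simple epithelial markers tested, with 1 higher and 2 lower. Whether these lists differed from all genes was not tested. Of the 20 RGS and Gq genes tested, 3 were lower with FOSL1sh3 than with FOSL1sh10. RGS9 averaged 16.7 ± 2.51 CPM with FOSL1sh3 and 31.7 ± 4.07 CPM with FOSL1sh10 (log2 difference -0.91, adjusted p = 0.003, edgeR, n = 3 each). RGS10 averaged 331 ± 30.8 CPM with FOSL1sh3 and 456 ± 32.6 CPM with FOSL1sh10 (-0.46, adjusted p = 0.0341, edgeR). RGS16 averaged 1.58 ± 0.307 CPM with FOSL1sh3 and 4.08 ± 0.865 CPM with FOSL1sh10 (-1.37, adjusted p = 0.0164, edgeR).

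Among the homeobox genes, of which 64 were tested, 2 were higher and 5 lower with FOSL1sh3 than with FOSL1sh10. TGIF1, a repressor in TGF-beta signalling, was lower with FOSL1sh3 (-0.75, adjusted p = 0.0104, edgeR). Among the 23 histone deacetylase partners, WIZ was higher with FOSL1sh3 (0.96, adjusted p = 0.00261, edgeR), and HDAC2 and the demethylase KDM1A were lower (-0.88 and -0.47, adjusted p = 0.0132 and 0.0345, edgeR).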
